A study of Homo sapiens with 4 samples.

Results

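Albumin, alpha-fetoprotein and 8 further plasma proteins, most of them carriers, were examined in RNA-seq libraries labelled as HepG2, a human hepatocellular carcinoma cell line. The 10 genes were ALB, AFP, TF, TTR, SERPINA1, SERPINA3, AHSG, FETUB, RBP4 and GC, and they were found by their symbols among the 57979 genes with values. Polyadenylated RNA was sequenced from wild-type cells (WT, 2 libraries) and from cells carrying a CRISPR-Cas9 knockout of TXNDC9 (TXNDC9-KO, 2 libraries). According to the methods, cells were grown in DMEM with fetal bovine serum and the guide RNAs were carried by a lentiviral vector. For a protein blot the study describes infected cells sorted by flow cytometry, and for RNA-seq values it describes independent experiments, more in number than the libraries per group here. Whether the sorted cells were then cloned, and which cultures gave these libraries, is not given in the sources used here, so p-values measure the spread between these libraries, which may be technical. All 10 genes lay at or near 0 in every library, which goes against the label of the cell line: the highest value was 0.449 FPKM (fragments scaled to transcript length and to the mapped fragments of the library).

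The hepatocyte makes most of the protein of blood plasma. Albumin, alpha-fetoprotein and the vitamin D-binding protein GC belong to 1 protein family, and alpha-fetoprotein is its fetal member, made again by many liver tumors. The genes are switched on together by liver transcription factors such as HNF4A, the FOXA proteins and CEBPA. HepG2 cells are known for secreting albumin, alpha-fetoprotein and transferrin into their medium, and these mRNAs are among the markers by which the line is recognized.

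Positions are given for hg38 from GENCODE release 44. ALB (chromosome 4, 73397114 to 73421482) and AFP (chromosome 4, 73431138 to 73456174) stood side by side on the plus strand, 9656 bases apart by these bounds. GC (chromosome 4, 71741696 to 71804041) lay on the minus strand of the same chromosome. AHSG and FETUB, which encode the fetuins, were 14651 bases apart on chromosome 3. SERPINA1 and SERPINA3 lay in the serpin cluster of chromosome 14, with 221691 bases between them. TF was on chromosome 3, RBP4 on chromosome 10 and TTR on chromosome 18. RBP4 overlaps FFAR4, and AHSG and FETUB overlap HRG-AS1, on the opposite strand, and the use of strand in counting is not given in the sources used here. Promoters with the letters TATAAA are shown because they are among the sites from which these mRNAs would start. These letters are a form of the TATA box, the element that sets the start of transcription at many strongly transcribed genes. Other forms of the box were not searched for, so a promoter without a match may still carry one. The letters TATAAA were searched for on both strands in the 250 bases before each start site (RefSeq, GRCh38.p14). They were present in 13.0% of 27305 genes, and in 3 of the 8 members found in that table: AFP (chr4:73436152-73436220, plus strand), FETUB (chr3:186635899-186635968, plus strand) and RBP4 (chr10:93601236-93601306, minus strand). RBP4 has a further start site with matches, which is not printed. The AFP and RBP4 sequences lie inside the GENCODE bounds of these genes, which reach beyond the RefSeq start sites used for them. Capitals mark the match, which began 29, 30 and 31 bases before the start site, and the sequences read 5′ to 3′ on the strand of the gene.
AFP: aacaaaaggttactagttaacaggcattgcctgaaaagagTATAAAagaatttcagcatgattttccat
FETUB: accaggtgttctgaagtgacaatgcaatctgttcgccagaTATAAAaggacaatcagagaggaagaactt
RBP4: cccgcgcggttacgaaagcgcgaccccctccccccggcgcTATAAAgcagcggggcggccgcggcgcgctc
A match of 6 letters is a description of the sequence and does not show binding.

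Of the libraries as a whole, FPKM values summed to 805816 and 971102 in WT and to 535973 and 568279 in TXNDC9-KO cells, and 20876 to 22751 genes were above 0. TXNDC9 mRNA was 35.1 and 37.3 FPKM in WT and 21.9 and 27.6 FPKM in TXNDC9-KO cells, a log2 fold change of -0.55 (SE 0.14, adjusted p = 0.0145 from limma), which missed the threshold. That fold change was not adjusted for the lower summed FPKM of the TXNDC9-KO libraries, which goes in the same direction. A value for TXNDC9 with equal library totals is not given here. By protein blot, the study reported a significant reduction of TXNDC9 in the knockout cells. Most genes that all cells use were far above the members. GAPDH ranged from 3526.2 to 9018.8 FPKM over the libraries. Of 77 cytosolic ribosomal protein genes, 75 were above 0 in every library, and the others were the tissue-restricted copies RPL3L and RPL10L. Of 39 proteasome subunit genes, 37 were above 0 in every library, and the others were the tissue-restricted PSMA8 and PSMB11. The lowest value among these 37 was 0.233 FPKM, of PSMB8, a subunit of the immunoproteasome, which is below both WT values of AFP. The files hold no counts, so the depth behind a low value is unknown.

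AFP, the fetal albumin, was the highest of the 10 genes, with 0.262 and 0.449 FPKM in WT and 0 and 0.0996 FPKM in TXNDC9-KO libraries. Both TXNDC9-KO values lay below both WT values, as in 30.8% of the 26435 genes with any value above 0. In bulk RNA, fewer cells with an mRNA and less of it per cell cannot be told apart. Of the protein-coding genes, 63.8% had a higher mean than AFP. ALB, the main carrier of fatty acids, bilirubin and drugs in plasma, was above 0 in 1 library only, at 0.026 FPKM in WT replicate 1. Of the protein-coding genes, 78.9% had a higher mean than ALB. GC, which carries vitamin D and binds free actin, was listed at 0 in all 4 libraries. The albumin family was thus near 0 throughout, and AFM, its further gene next to AFP, was above 0 only in TXNDC9-KO replicate 1, at 0.0336 FPKM.

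TF encodes transferrin, the iron carrier of plasma. It was 0.0949 and 0.0172 FPKM in WT and 0 and 0.0532 FPKM in TXNDC9-KO libraries, and the groups overlapped. The annotated TF gene overlaps SRPRB on the same strand, which encodes a subunit of the signal recognition particle receptor and was 56.1 to 68.5 FPKM in the same libraries. TTR encodes transthyretin, which carries thyroxine and binds RBP4, the plasma carrier of retinol. TTR was above 0 in WT replicate 2 only, at 0.146 FPKM. RBP4 was 0.0396 FPKM in WT replicate 1 and 0.0291 FPKM in TXNDC9-KO replicate 1, and it was listed at 0 in the others. In no library were both partners of the TTR and RBP4 complex above 0.

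SERPINA1 encodes alpha-1-antitrypsin, the main inhibitor of neutrophil elastase in plasma. It was 0.0291 FPKM in WT replicate 2 and 0.0196 FPKM in TXNDC9-KO replicate 1, and 0 in the other two. SERPINA3, or alpha-1-antichymotrypsin, was 0.0254 and 0.0244 FPKM in WT and 0 in both TXNDC9-KO libraries. SERPINA3 was therefore the second member whose groups did not overlap, with lower TXNDC9-KO values as in 30.8% of 26435 genes. Its levels were close to the lowest values of the files. The 5th percentile of all values above 0 was 0.02 to 0.0319 FPKM over the libraries. AHSG and FETUB, cystatin-related inhibitors of mineral deposition and of proteases, were listed at 0 in all 4 libraries. The table holds a second SERPINA3 line under another identifier, with a highest value of 0.00411 FPKM, and the line with the higher mean was used.

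Of the 40 values (10 genes in 4 libraries), 14 were above 0, 10 of them in WT and 4 in TXNDC9-KO libraries. Over all genes, 37.1% and 36.0% were above 0 in the WT and 38.4% and 39.2% in the TXNDC9-KO libraries. Most of the 14 values lay close to the lowest of the files, and the split between the groups was not tested. By mean level the order was AFP (0.203 FPKM), TF (0.0413), TTR (0.0364), RBP4 (0.0172), SERPINA3 (0.0125), SERPINA1 (0.0122) and ALB (0.0065), with 3 genes at 0. Over all 4 libraries neighbours in this order overlapped in their values, AFP and TF included through the TXNDC9-KO libraries. In the WT libraries alone both values of AFP lay above every value of the other members, the highest of which was 0.146 FPKM (TTR), and by WT mean TTR (0.0728 FPKM) stood above TF (0.056 FPKM) and SERPINA3 (0.0249 FPKM) above RBP4 (0.0198 FPKM). No value exceeded the median of the values above 0 in its library, which was 2.36 to 3.11 FPKM. Together the 10 genes held 5.56e-05% and 6.85e-05% of the summed FPKM in WT and 9.1e-06% and 2.69e-05% in TXNDC9-KO libraries. The difference had an exact permutation p of 0.33 (two-sided), which is the smallest that 2 libraries against 2 allow.

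**Figure D1:**
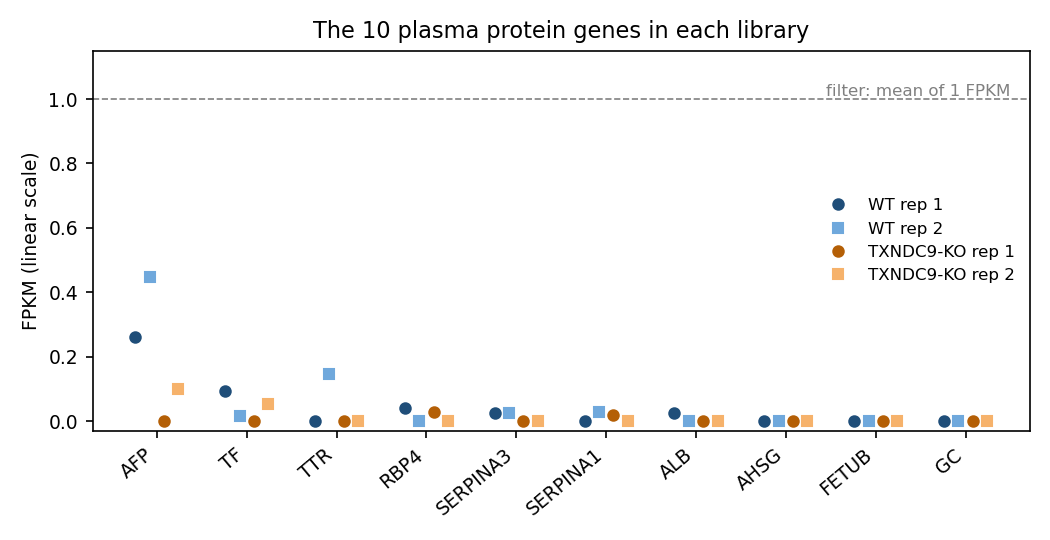
FPKM of the 10 genes (linear axis) in the 2 WT and 2 TXNDC9-KO libraries, 1 point per library, with genes in order of their mean. AFP in WT replicate 2 is the highest point at 0.449 FPKM, and all points lie below the dashed line at 1 FPKM, the level of the mean that a gene had to exceed to be tested.

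Because none of the 10 genes had a mean above 1 FPKM, none entered the comparison of TXNDC9-KO with WT cells. That comparison used log2(FPKM + 0.1) and called a gene at an adjusted p under 0.01 and a change of at least 2-fold. It called 15.3% of 13246 genes lower and 14.2% higher in TXNDC9-KO cells. Without the filter on low values, 7 members were fitted with 26435 genes, of which 5.37% were called lower and 5.98% higher, and 0 of the 7 members were called in either direction by limma. An unadjusted p under 0.05 was given to 43.5% of the genes there, and to 1 of the 7 members, AFP. Its log2 difference was -1.66 (SE 0.50, unadjusted p = 0.0258, adjusted p = 0.0686 from limma), on a scale where the added 0.1 is of the size of the values themselves. With 0.01 or 1 added, the AFP difference was -3.42 or -0.37. The other 6 fitted members had adjusted p-values from 0.242 (SERPINA3) to 0.89 (RBP4). Over all 26435 genes, both TXNDC9-KO values lay below both WT values in 30.8%, against 2 of the 7 members above 0 (AFP and SERPINA3).

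The low level was shared by other genes that mark cells of hepatocyte origin. Among APOA1, APOA2, APOB, APOC3, FGA, FGB, FGG, AMBP, APOH and HNF4A, which encode apolipoproteins, fibrinogen chains, further plasma proteins and a liver transcription factor, 0 of 10 had a mean above 1 FPKM. The highest mean of these 10 was 0.111 FPKM (APOA2), and APOA1, APOC3 and APOH were listed at 0 in all 4 libraries. Their summed level was 0.236 and 0.208 FPKM in WT and 0.197 and 0.302 FPKM in TXNDC9-KO libraries. The defining markers of the labelled cell line were thus absent or near 0 in all 4 libraries. The identity of the sequenced cells, and the match of the deposited values to them, are therefore in doubt and were not tested. Every WT and TXNDC9-KO value is given under the label of its library, with that doubt. Of all 19628 protein-coding genes, 37.8% never exceeded 0.5 FPKM in any library and 17.5% were listed at 0 in all 4.

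Among 15 markers of blood, endothelial, stromal and bile duct cells, 7 had a mean above 1 FPKM, while CD3E and COL1A2 were listed at 0 throughout. The keratin gene KRT7 was 2294 and 4071 FPKM in WT and 526 and 559 FPKM in TXNDC9-KO libraries, and it fell with a log2 fold change of -2.49 (SE 0.30, adjusted p = 0.00109 from limma). It made up most of the summed level of the list, 2355 and 4131 FPKM in WT and 577 and 607 FPKM in TXNDC9-KO libraries. CDH5, an endothelial cadherin, rose from 0.909 ± 0.223 to 3.7 ± 0.794 FPKM, and PDGFRB, a growth factor receptor of stromal cells, rose from 0.905 ± 0.241 to 2.81 ± 0.274 FPKM (SD, n = 2). The other endothelial markers stayed near 0, with PECAM1 at most at 0.261 and VWF at most at 0.0205 FPKM. Of the other stromal markers with a mean above 1 FPKM, none was called, and the log2 fold changes were -0.49 for COL1A1, -0.70 for COL3A1 and -0.29 for ACTA2. KRT19, the other bile duct keratin of the list, did not exceed 0.312 FPKM. The blood cell marker CD68 was 3.38 and 5.16 FPKM in WT and 5.77 and 6.9 FPKM in TXNDC9-KO libraries. It was not called (log2 fold change 0.58). CD68 was called higher after rescaling to TPM (1.26) and after a correction for GC content and transcript length (1.21). PTPRC and CD14, also blood cell markers, reached 0.192 and 0.638 FPKM. The part of these markers in the low level of the plasma protein genes was not tested.

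Other plasma carriers were low as well. Of 24 such genes, 19 never exceeded 0.5 FPKM in any library, and 6 were listed at 0 throughout, among them the orosomucoid ORM1, the thyroxine carrier SERPINA7 and the kininogen KNG1. Haptoglobin (HP) was above 0 in WT replicate 2 only, at 0.0559 FPKM, and hemopexin (HPX) reached 0.217 FPKM. The 3 genes with a mean above 1 FPKM were not called. APOM, an apolipoprotein that carries sphingosine-1-phosphate, was 4.5 and 7.46 FPKM in WT and 2.83 and 2.77 FPKM in TXNDC9-KO libraries (log2 fold change -1.02, SE 0.25, adjusted p = 0.0135 from limma). CP, the copper protein ceruloplasmin, had a log2 fold change of -0.79 (SE 0.30), and LCN2, a siderophore-binding lipocalin, of -0.61 (SE 0.26). The calls depended on the setting: 1 of the 3 was called lower with the replicate number as a block, after centring (APOM, -1.17) and at an adjusted p under 0.05, and 2 were without WT replicate 1. With every library scaled to an equal total (TPM), the log2 fold change was -0.36 for APOM and 0.04 for LCN2, which was also above 0 (0.14) after a correction for GC content and transcript length within each library.

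By clade, levels of the listed serpins ran from 0 to 326 FPKM. The 12 clade A genes listed, which include SERPINA1, SERPINA3, the hormone carriers SERPINA6 and SERPINA7, and angiotensinogen (AGT), never exceeded 0.0291 FPKM in any library, and 7 of them were listed at 0 throughout. All 4 listed clade B genes, SERPINB1, SERPINB6, SERPINB8 and SERPINB9, had a mean above 1 FPKM. They encode mostly intracellular inhibitors. SERPINH1, the collagen chaperone of the endoplasmic reticulum, was also above that level. Serpins outside the list were not examined, so these levels are not those of whole clades. Of 9 tested serpins listed outside the 10 genes, 2 fell and 0 rose, with a median log2 fold change of -0.63 against -0.09 over all tested genes. Of all tested genes, 15.3% were called lower and 14.2% higher. SERPINB6 fell from 244 and 326 FPKM in WT to 91.8 and 97 FPKM in TXNDC9-KO libraries (log2 fold change -1.58, SE 0.17, adjusted p = 0.000809 from limma). SERPINE2, an inhibitor of thrombin and plasminogen activators, fell from 10 ± 3.41 to 4.07 ± 0.35 FPKM (SD, n = 2). After rescaling to TPM, neither fall passed, at -0.90 for SERPINB6 and -0.57 for SERPINE2.

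**Figure D2:**
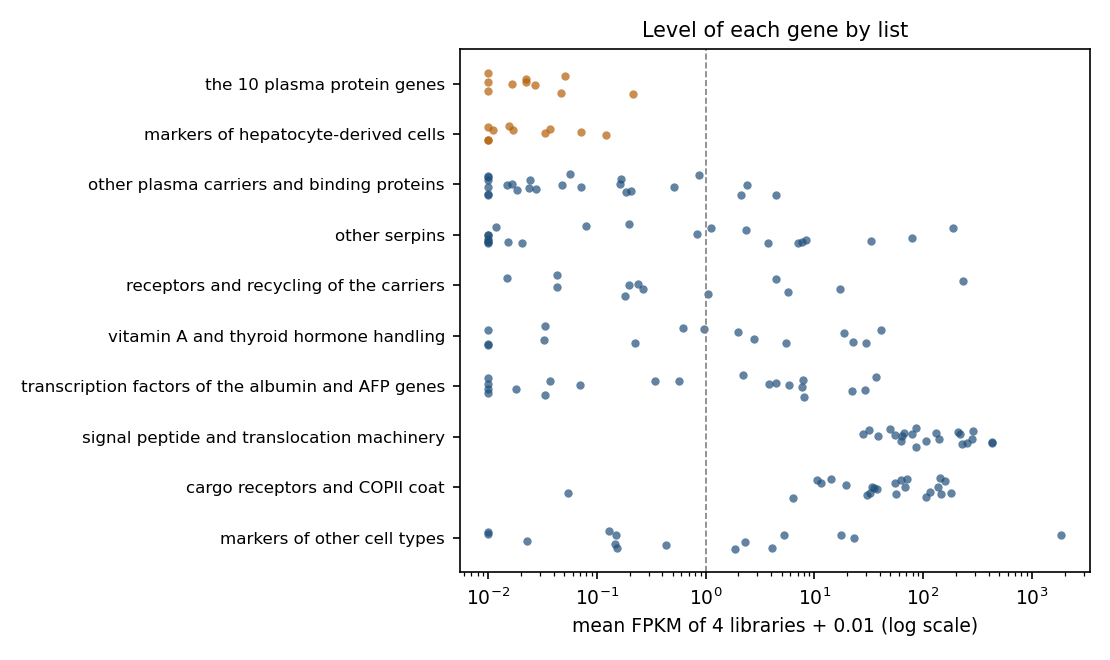
Mean FPKM over the 4 libraries plus 0.01 (log axis), 1 point per gene, by list, with the dashed line at a mean of 1 FPKM. The 10 plasma protein genes reach 0.203 FPKM and the markers of hepatocyte-derived cells 0.111 FPKM, while the genes of the secretory machinery lie to the right of the line except MIA2.

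Of 12 receptors of the carriers with values, 5 had a mean above 1 FPKM and 6 never exceeded 0.5 FPKM. TFRC, the transferrin receptor, was 94.3 and 73.9 FPKM in WT and 386 and 387 FPKM in TXNDC9-KO libraries. It rose with a log2 fold change of 2.21 (SE 0.15, adjusted p = 0.000512 from limma), and the call held after rescaling to TPM (2.89) and after the correction for GC content and transcript length (1.54). TFR2, the iron-sensing second transferrin receptor, was 4.96 and 5.08 FPKM in WT and 4.17 and 3.59 FPKM in TXNDC9-KO libraries and was not called. SORT1, a sorting receptor of secreted proteins, rose from 11.1 ± 0.997 to 23.5 ± 0.622 FPKM (SD, n = 2), but not after the correction (log2 fold change 0.38). Of the 5 tested receptors, 2 rose and 0 fell, beside 14.2% higher and 15.3% lower over all tested genes. The receptors of the galactose-exposed plasma glycoproteins, ASGR1 and ASGR2, known as hepatocyte genes, reached 0.568 and 0.0599 FPKM, and FCGRT, which recycles albumin, 0.353 FPKM.

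Genes of vitamin A and thyroid hormone handling, the cargo of RBP4 and TTR, had 7 tested members of 15, of which 1 fell and 0 rose (median log2 fold change 0.29). Among all tested genes 15.3% fell and 14.2% rose. CRABP2, a cellular retinoic acid carrier, was 3.45 and 5.84 FPKM in WT and 0.563 and 1.2 FPKM in TXNDC9-KO libraries, and it fell with a log2 fold change of -2.31 (SE 0.41, adjusted p = 0.00418 from limma). The fall did not pass after the correction for GC content and transcript length (-1.59). RDH11, a retinal reductase, was 30.1 and 35 FPKM in WT and 49.9 and 50.7 FPKM in TXNDC9-KO libraries, short of a 2-fold change. RBP2, the intestinal retinol carrier, had 0.449 and 1.18 FPKM in WT and 0.111 and 20.2 FPKM in TXNDC9-KO libraries, so that 1 library decided its mean.

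Of 20 transcription factors known to act on the albumin and AFP genes, 10 had a mean above 1 FPKM. FOXA2, GATA4 and PROX1 were listed at 0 in all 4 libraries, and HNF4A reached 0.0628 FPKM and FOXA3 0.0199 FPKM. CEBPA was 3.24 to 4.38 FPKM over the libraries, and CEBPB 20 to 26.7 FPKM. Of the known repressors of AFP, ZHX2 did not exceed 0.421 FPKM. ZBTB20 was 0.147 and 0.182 FPKM in WT and 1.13 and 0.752 FPKM in TXNDC9-KO libraries. Neither had a mean above 1 FPKM, so neither was tested. A part of either gene in the level of AFP was not tested. In TXNDC9-KO cells 3 of the 10 rose and 0 fell, with a median log2 fold change of 0.17. Calls over all tested genes were 14.2% higher and 15.3% lower. NFIA rose from 4.63 ± 0.0203 to 10.8 ± 0.701 FPKM, NFIB from 5.2 ± 1.31 to 10.4 ± 0.524 FPKM and FOXA1, a pioneer factor, from 3.68 ± 1.08 to 8.07 ± 0.652 FPKM (SD, n = 2). None of these 3 was called after the correction for GC content and transcript length, with log2 fold changes of 0.17, 0.02 and 1.05, while CEBPB, not called before it (0.11), was called higher after it (1.09).

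The machinery that secreted proteins share was expressed throughout. All 22 genes of signal peptide recognition, translocation and cleavage were tested, 3 fell and 0 rose, with a median log2 fold change of -0.33. Over all tested genes 15.3% fell and 14.2% rose. SSR2 and SSR4, subunits of the translocon-associated complex, fell from 405 ± 76.7 to 163 ± 17.9 FPKM and from 343 ± 77.3 to 166 ± 10.8 FPKM. SRP19, of the signal recognition particle, fell from 149 ± 23.9 to 65.6 ± 6.4 FPKM (SD, n = 2). After rescaling to TPM 0 of the 22 genes were lower and 5 higher by limma, with values of -0.62, -0.35 and -0.49 for these 3. That rescaling called 447 of all 13246 tested genes lower and 4380 higher.

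Of 23 cargo receptors and genes of the COPII coat, which carries proteins from the endoplasmic reticulum to the Golgi, 22 were tested, 6 rose and 4 fell (median log2 fold change 0.34). The shares over all tested genes were 14.2% higher and 15.3% lower. SEC23A rose from 16.7 ± 1.34 to 48.6 ± 2.59 FPKM, SEC24B from 3.26 ± 0.446 to 9.44 ± 1.1 FPKM and SEC24A from 5.69 ± 0.124 to 15.6 ± 1.12 FPKM (SD, n = 2). After rescaling to TPM 11 were higher and 0 lower (median 1.02). Of all 13246 tested genes, TPM gave 4380 higher and 447 lower (median 0.59). After the correction for GC content and transcript length 2 were higher and 2 lower, and SEC23A (log2 fold change 1.02) was among the former while SEC24B (0.90) and SEC24A (0.55) were not. LMAN1, the cargo receptor that is known to export alpha-1-antitrypsin, was 36.8 and 33.2 FPKM in WT and 78.8 and 78 FPKM in TXNDC9-KO libraries, where SERPINA1 did not exceed 0.0291 FPKM. The log2 fold change of LMAN1 was 1.16, and 0.40 with no call after the correction. LMAN1 was chosen after its values were seen.

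**Figure D3:**
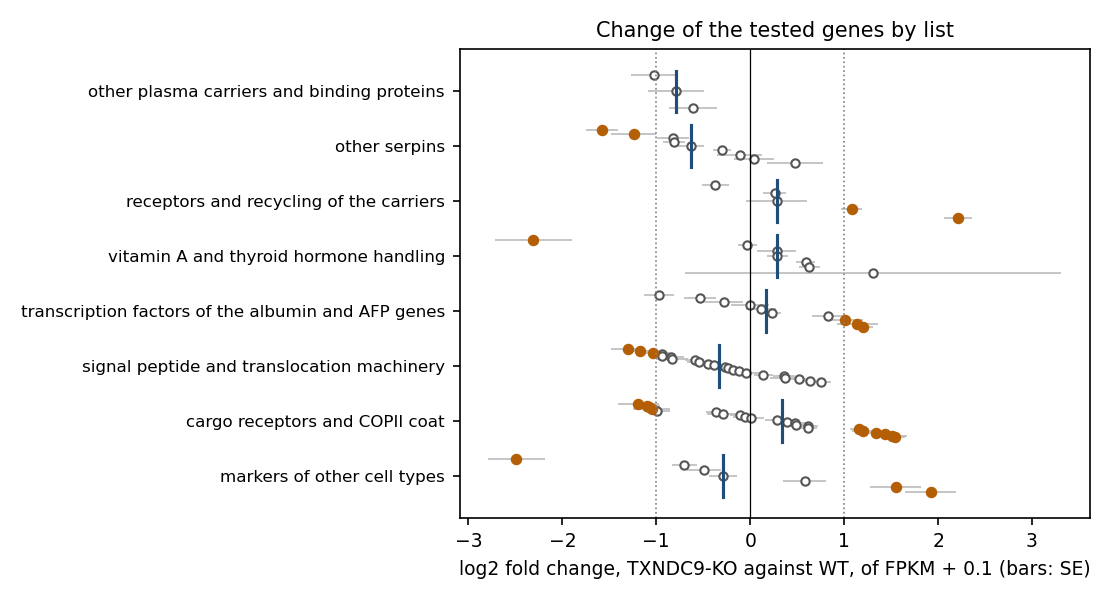
Log2 fold change of FPKM + 0.1 in TXNDC9-KO against WT libraries for the tested genes of each list, with bars for the SE from limma, filled points for genes called, dotted lines at a 2-fold change and vertical marks for list medians. None of the 10 plasma protein genes appears, because none was tested, and the points farthest from 0 are KRT7 (-2.49), CRABP2 (-2.31) and TFRC (2.21).

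With either TXNDC9-KO library left out, the spread of the remaining one had to be taken from the WT libraries. Such a fit cannot show whether the calls among the lists depend on both knockout libraries. The median log2 fold change over all 13246 genes was -0.06 without TXNDC9-KO replicate 1 and -0.11 without replicate 2, against -0.09 with all libraries. The neighbourhoods of the members were not empty of expression. Of 70 other protein-coding genes within 500 kb of a member, 27 (38.6%) had a mean above 1 FPKM, against 56.6% of all protein-coding genes with values. Beside ALB and AFP, ANKRD17 and COX18 were expressed, ANKRD17 at 12.5 FPKM, and beside AHSG and FETUB the translation factor gene EIF4A2 reached 149 FPKM.

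Likeness of pattern was measured as the distance between log2(FPKM + 0.1) values, each centred on its mean over the 4 libraries, among the listed genes. The 3 nearest to ALB were HAMP (distance 0.00109), FGA (0.0186) and FOXA3 (0.182), which were above 0 in WT replicate 1 as ALB was and at or near 0 in the other libraries. In WT replicate 1 ALB and these genes lay at 0.0199 to 0.0279 FPKM. The 5th percentile of values above 0 there was 0.0231 FPKM, so this likeness rests on values among the lowest of the library. The 3 nearest to AFP were CRABP2 (0.656), SERPINB6 (0.666) and SSR2 (0.668), which lay lower in both TXNDC9-KO libraries, at far higher levels than AFP.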

How the data were processed

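Polyadenylated RNA of 2 WT and 2 TXNDC9-KO libraries labelled HepG2 was sequenced by the authors, who mapped reads to hg38 with TopHat2 and an Ensembl annotation and deposited FPKM per gene and library from Cuffdiff. Versions, strand and library normalization are not given in the sources used here. The authors' averages, fold changes, p-values and q-values were not used. The table had 231916 lines, 57979 with values. Its identifiers stood out of register with the symbols and were put back in order, after which the symbols of 10 of 10 members matched GENCODE release 44.

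Values were moved to log2(FPKM + 0.1), and genes with a mean above 1 FPKM were tested in limma 3.58.1 under R 4.3.3 (trend in the prior variance, Benjamini-Hochberg adjustment over all genes tested, adjusted p under 0.01 and at least 2-fold). The correction for GC content and transcript length used a loess curve (span 0.3) per library and canonical transcripts. Low values showed no step worth 1 read: the most common log2 ratio covered at most 4.53% of low genes in any pair of libraries, so the depth of each library is unknown, and no intervals or floors are given. Ratios between members were planned and were not computed, because 26 of the 40 values were 0. The steps were tested on simulated data.

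Named genes were the members, TXNDC9, the 3 tested genes with the largest change in each list and those nearest in pattern to ALB and AFP. Others named for their level or setting, and the motif searched in promoters, were chosen after the values were seen. Some genes that this rule would name are not reported here. The members and lists were chosen with earlier results of these data known. Alternatives were other pseudocounts (1 and 0.01), other filters (none, and a mean above 5), an adjusted p under 0.05, TPM, centring on the median, no trend, the correction, the replicate number as a block, and each library left out. Tables and figures were made with matplotlib 3.10.9, scipy 1.17.1, numpy 2.4.6 and pandas 2.3.3 in Python 3.11.15.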

Additional observations from a re-analysis of the deposited data

How the results depend on the processing

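No member was called under any alternative run, and none passed a filter of a mean above 1 or 5 FPKM, so these alternatives say little about the members themselves. Over all genes, 2021 lower and 1885 higher became 447 and 4380 after rescaling to TPM, 969 and 841 after the correction for GC content and transcript length, and 975 and 841 with that correction and the replicate block. A filter at a mean of 5 FPKM left 1220 higher. The share of calls that were higher was 48.3%, and 90.7% after TPM and 35.8% after centring. The median log2 fold change of all genes was -0.09, 0.59 after TPM and -0.23 after centring. The replicate block alone gave 2146 and 1960, and same-numbered libraries deviated with a correlation of -0.0904. That value gives no sign of pairs, but with 2 libraries per group it cannot exclude them. Leaving out each library in turn, the counts ranged from 0 to 2633 lower and from 0 to 2136 higher, and the 0 came from leaving out either TXNDC9-KO library, a fit in which the remaining one is assumed to vary like the WT libraries. Over the other lists together, 11 lower and 13 higher genes became 2 and 27 after TPM and 4 and 8 without the filter, the correction left 7 higher with and without the block, and with each library left out they ranged from 0 to 16 and from 0 to 12. The cause was not tested. The summed share of the members differed by -4.41e-05 percentage points, and by -5.3e-05 to -3.52e-05 with each library left out. No paired analysis was possible for the ratios between members because most values were 0, and for the same reason no alternative for them was run.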
